A study of Mus musculus with 18 samples.

Results

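The genes that carry glucose to pyruvate and lactate, those of the pentose phosphate pathway and their closest regulators were followed as a set of 40 in mouse embryonic fibroblasts (MEFs). MEFs are primary cultures grown from minced embryos, here mid-gestation embryos without head and viscera. The members were listed by symbol for their textbook roles, with earlier results of these data known. They were looked up, with older symbols allowed, among the 55401 gene identifiers of the count table. All 40 had an identifier, and all 40 passed the filter on low counts in each comparison. The series holds 18 RNA-seq libraries in 6 groups of 3. One set of 9, called the S6K1 series, compares WT MEFs (wild type) that took up the empty retrovirus (EV), WT MEFs that took up a retrovirus for constitutively active HRAS (RAS), and RAS MEFs whose S6K1 gene was knocked out (KO). The other 9, the S6K1/S6K2 series, hold its own EV and RAS libraries of WT MEFs beside RAS MEFs knocked out for both S6K1 and S6K2 (double knockout, DKO). Cells of all 6 groups went through retroviral transduction and drug selection, and the labels give no time after infection. Per the study's methods, S6K1 WT and KO embryos were littermates from heterozygous parents. DKO embryos came from parents that already lacked S6K2 and were heterozygous for S6K1, whereas their WT controls came from WT mothers. Since KO and DKO cells with EV were not analysed here, the kinases' loss was compared in RAS cells alone.

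In glycolysis, hexokinases trap glucose as its phosphate, phosphofructokinase commits it to breakdown, and the lower steps yield ATP, NADH and pyruvate. Lactate dehydrogenase and monocarboxylate transporters then turn pyruvate into lactate and move it out of the cell, unless pyruvate dehydrogenase (PDH) passes it to the mitochondria. The pentose phosphate pathway takes glucose 6-phosphate aside to make NADPH and ribose. Many glycolytic genes are known targets of HIF1A, the oxygen-regulated transcription factor, and of MYC, and S6K1 and S6K2 (encoded by Rps6kb1 and Rps6kb2) act below mTORC1, a growth regulator that is known to raise HIF1A and glycolysis.

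Total counts per library were between 8319445 and 14402442. Rps6kb1 read 23.6 to 37.0 CPM (the gene's share of its library's counts scaled to one fixed total, with TMM factors set within each series) in KO RAS against 61.6 to 74.6 in WT RAS, and fell between 34.5 and 39.7 for DKO RAS against 75.5 to 83.7 in its WT RAS libraries. Rps6kb2 read 2.68 to 3.04 CPM in DKO RAS against 24.1 to 28.9 in WT RAS, so the targeted genes followed the labels without overlap, although the exons behind the remaining counts were not analysed. All 12 fibroblast markers were detected, at a summed 24521 to 60630 CPM. Macrophage markers were also present, at a summed 41.1 to 3459 CPM over 14 genes, and are given beside the comparisons they move with. Within the S6K1/S6K2 series, WT EV replicate 1 had the lowest level of the 3 libraries for 24 of the 40 members, and replicate 3 had the highest for 25. The median member differed from the rest of the group by -0.21 on the log2 scale in replicate 1 and by 0.27 in replicate 3. Replicate 1 also had a summed macrophage level of 1213 CPM against 137 and 179.

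The members took up 0.510 ± 0.0518% of all counts in WT EV and 0.644 ± 0.0549% in WT RAS of the S6K1 series (mean ± SD, n = 3 for every group in this report). They took up 0.441 ± 0.0651% and 0.688 ± 0.0435% in the S6K1/S6K2 series. Per kilobase of transcript, the most abundant member in WT EV of the S6K1 series was the aldolase Aldoa at 463 CPM per kb. It was followed by pyruvate kinase (Pkm) at 402 and lactate dehydrogenase A (Ldha) at 270.0. The brain-type aldolase Aldoc was lowest at 0.688. Gapdh, a core glycolytic enzyme that is usually among the most abundant transcripts of a cell, stood at only 6.50 CPM per kb. Its transcript shares 85.6% of its 50-base windows, the length of the reads, with identical sequence elsewhere in the genome. The same share was 92.9% for Pgk1, 91.9% for Pgam1, 72.2% for Eno1 and 61.7% for Bnip3, and under 10% for 28 members. How reads with several matches were counted is not given in the sources used here, so the levels of these genes are uncertain, and the part of such copies in them was not tested.

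**Figure D1:**
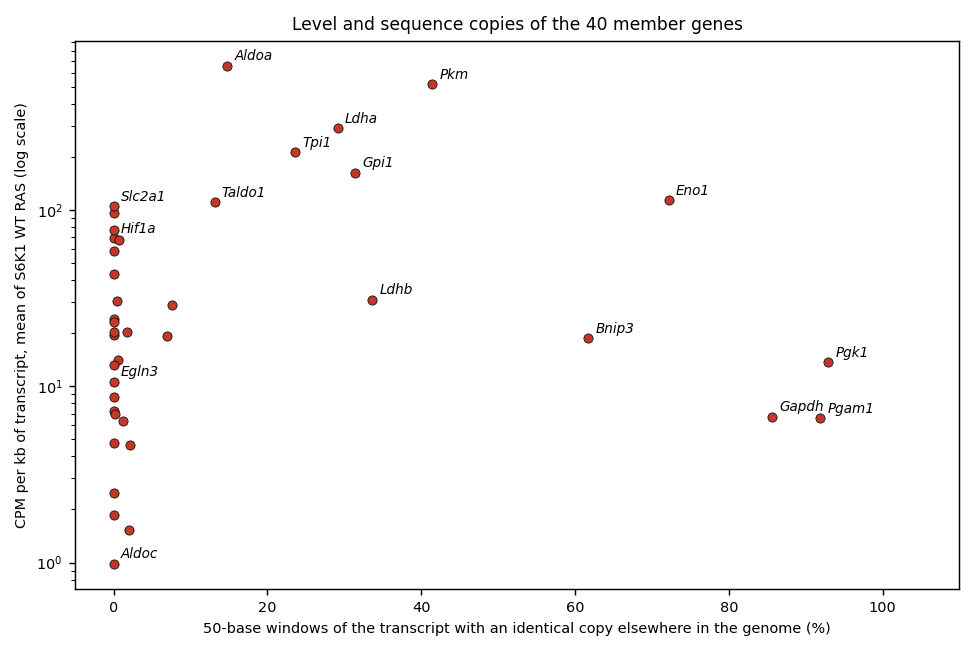
Level of each of the 40 members in WT RAS of the S6K1 series (CPM per kb of transcript, mean of 3 libraries, log axis) against the percentage of its 50-base windows with an identical copy elsewhere in the genome (NCBIM37). Gapdh, Pgk1 and Pgam1 sit at the right, with over 85% of windows copied and under 14 CPM per kb.

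To ask what RAS does to these genes, WT RAS was compared with WT EV in each series, with edgeR's quasi-likelihood test and adjustment over all genes tested. In the S6K1 series, 7 members rose and 1 fell, which is 20% of the members, against 13.2% of all 14036 genes tested (7.15% higher and 6.09% lower). The S6K1/S6K2 series had 17 members that rose and 1 that fell, 45.0% of the members against 26.3% of 13881 genes (13.5% higher and 12.7% lower). Both shares were above those of all genes in these fits, and nearly all calls were rises. Since the list was set with earlier results of these data known, these shares describe the members and are no independent test of them. At an unadjusted p under 0.05 the counts were 13 and 25 members, against 26.4% and 39.8% of all genes, and the fitted change was above 0 for 28 and 33 members, against 50.2% and 48.2%. The median member was higher by 0.26 on the log2 scale in the S6K1 series and by 0.58 in the S6K1/S6K2 series, where the medians of all genes were 0.00 and -0.02. Leaving out 1 library lowered the count in the S6K1 series. It was 4 (10% of the members) without WT EV replicate 2 or WT RAS replicate 2, against 7.98% and 7.33% of all genes, and 6 (15%) without WT EV replicate 1, against 10.5%. It was 5 (12.5%) without WT EV replicate 3 or WT RAS replicate 1, against 9.32% and 8.27%. Without WT RAS replicate 3 it was also 5, against 12.8% of all genes, so that the members' share was not above that of all genes in that fit, although all 5 were rises, against 6.6% of all genes called higher. In the other series 15 members (37.5%) were called when replicate 1 of WT EV was omitted, against 21.3% of all genes, and 15 when replicate 1 of WT RAS was, against 22.7%. Omitting replicate 2 of WT EV, or replicate 2 or 3 of WT RAS, left 12 (30%), against 16.3%, 14.4% and 15.4%, and omitting replicate 3 of WT EV gave 25 (62.5%), against 29.6%. With the replicate number as a block, which the paired WT libraries allow, 21 members were called in the S6K1 series. These were 18 higher and 3 lower, against 36.2% of all genes (18.1% higher and 18.1% lower). In the S6K1/S6K2 series 17 were called, against 28.7% of all genes. The block of that series also took in its DKO libraries, whose numbers were not taken as pairs. The same holds for the block fits of differences between the series.

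**Figure D2:**
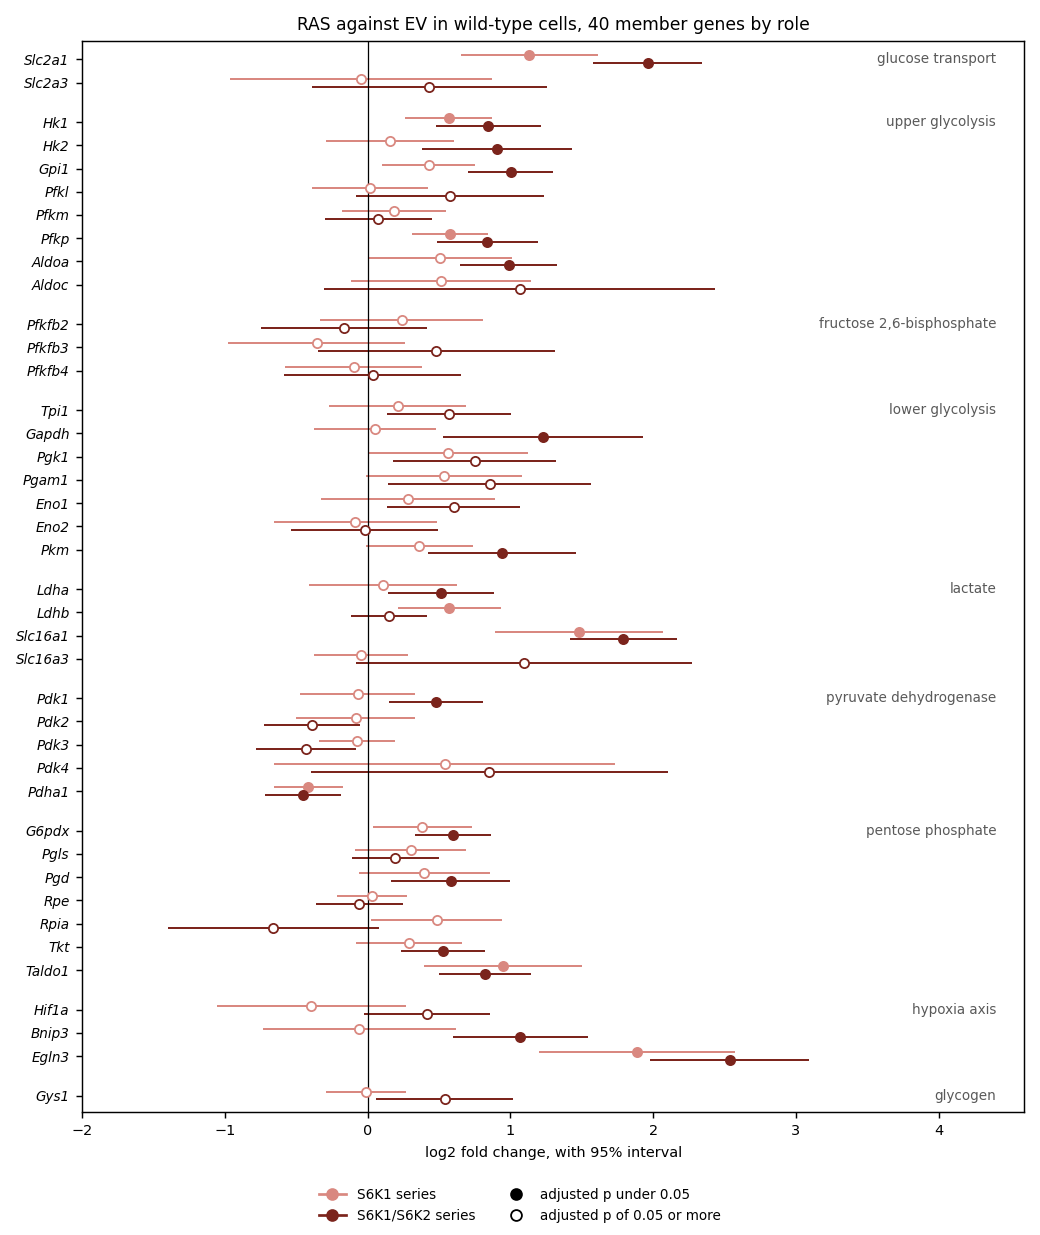
Log2 fold change of WT RAS against WT EV for the 40 members, grouped by role, in the S6K1 series (light) and the S6K1/S6K2 series (dark). The 95% intervals were derived from the edgeR test. Filled points have an adjusted p under 0.05. Slc2a1, Slc16a1 and Egln3 stand furthest to the right in both series, and Pdha1 is the filled point left of 0 in both.

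Of the glucose transporters, Slc2a1 (GLUT1, the main glucose carrier of fibroblasts; chr4:118781316-118809935, strand + in NCBIM37) rose in both series. Its level was 161, 100.7 and 113 CPM in the 3 WT EV libraries and 274, 255.97 and 292 in the 3 WT RAS libraries of the S6K1 series. The S6K1/S6K2 series read 95.9, 65.1 and 89.8 CPM with EV and 353, 314 and 309 with RAS. Every RAS library was above every EV library in both series. The log2 fold changes were 1.13 (SE 0.21, adjusted p = 0.00737) and 1.96 (SE 0.17, adjusted p = 0.000123), or 2.19-fold and 3.89-fold. Slc2a3 (GLUT3), a carrier of high affinity best known from neurons, was far scarcer, at 5.43, 6.48 and 11.1 CPM with EV in the S6K1 series, and passed the test in neither (log2 fold changes -0.05 and 0.43, adjusted p = 0.958 and 0.407).

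Of the lactate carriers, Slc16a1 rose in both series and Slc16a3 passed the test in neither. Slc16a1 (MCT1, a monocarboxylate transporter; chr3:104442591-104462385, strand + in NCBIM37) read 35.6, 30.7 and 44.0 CPM with EV and 102, 67.6 and 138 with RAS in the S6K1 series. It read 72.4, 67.7 and 47.8 CPM with EV and 231, 224 and 196 with RAS in the S6K1/S6K2 series. Again no EV library reached the lowest RAS library. The log2 fold changes were 1.48 (SE 0.26, adjusted p = 0.00539) and 1.79 (SE 0.17, adjusted p = 0.000167). Slc16a3 (MCT4, known for lactate export from highly glycolytic cells) had log2 fold changes of -0.05 and 1.09 (adjusted p = 0.873 and 0.149). Its EV libraries of the S6K1/S6K2 series differed widely, at 6.55, 38.0 and 44.8 CPM, with replicate 1 far below the others.

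Egln3 (PHD3), an oxygen-sensing prolyl hydroxylase that marks HIF1A for destruction and is itself a known HIF1A target (chr12:55279968-55304847, strand - in NCBIM37), had the largest fold change of the 40 in both series. It read 8.84, 6.26 and 7.79 CPM with EV and 19.7, 21.4 and 43.5 with RAS in the S6K1 series, and 4.45, 8.13 and 9.003 CPM with EV and 35.7, 43.5 and 46.1 with RAS in the S6K1/S6K2 series. The EV libraries stayed under 10 CPM, and WT RAS replicate 3 of the S6K1 series was well above its other RAS libraries. The log2 fold changes were 1.88 (SE 0.30, adjusted p = 0.00361) and 2.54 (SE 0.25, adjusted p = 0.000205), or 3.69-fold and 5.80-fold.

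Hif1a itself did not pass the test in either series, and its fitted changes had opposite signs. It read 342, 397 and 543 CPM with EV and 235, 269.8 and 471 with RAS in the S6K1 series, a log2 change of -0.39 (SE 0.29, adjusted p = 0.437). The S6K1/S6K2 series gave 304, 329.9 and 488 CPM with EV and 430.0, 473 and 595 with RAS, a log2 change of 0.42 (SE 0.20, adjusted p = 0.143). The groups overlapped in both. With the replicate block the fall of the S6K1 series was called (adjusted p = 0.00648), while the S6K1/S6K2 series was short of the threshold (adjusted p = 0.0607). Without WT EV replicate 3 of the S6K1/S6K2 series, the highest of its 3 EV libraries, the rise there was called (log2 fold change 0.67, adjusted p = 0.0164). Transcript counts say nothing of HIF1A protein, which is set largely by its turnover.

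Bnip3, a mitophagy receptor and known HIF1A target, rose in the S6K1/S6K2 series and did not pass the test in the S6K1 series. In the former it read 23.9, 37.8 and 36.3 CPM with EV and 57.7, 64.7 and 83.0 with RAS (log2 change 1.07, SE 0.21, adjusted p = 0.00569). The S6K1 series had 37.0, 23.4 and 42.0 CPM with EV and 29.9, 23.4 and 45.1 with RAS (log2 change -0.06, SE 0.30, adjusted p = 0.928), with the groups overlapping. The difference between the series was 1.12 on the log2 scale (SE 0.38, unadjusted p = 0.00996, adjusted p = 0.294), and with the replicate block it was called, at 1.13 (adjusted p = 0.0431). The copied windows of the Bnip3 transcript limit this value, and their part was not tested.

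The stretch before the start site of these 4 genes is shown because HIF1A is known to bind promoters through the letters ACGTG. Slc2a1, Slc16a1 and Egln3 moved furthest with RAS, and Bnip3 was added from 11 members called in the S6K1/S6K2 series alone. The 4 were chosen after their values were seen and do not stand for the other members that rose. Each line gives the 250 bases before the RefSeq start of the transcript in GRCm38.p6, 5′ to 3′ on the gene's strand, with ACGTG or its reverse complement CACGT in capitals.
Slc2a1 (chr4:119108495-119108744, strand +): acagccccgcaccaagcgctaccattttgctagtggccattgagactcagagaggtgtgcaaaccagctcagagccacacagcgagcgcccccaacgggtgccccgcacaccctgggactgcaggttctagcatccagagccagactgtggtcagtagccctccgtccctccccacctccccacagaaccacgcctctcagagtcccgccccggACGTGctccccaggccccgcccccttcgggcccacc
Slc16a1 (chr3:104638414-104638663, strand +): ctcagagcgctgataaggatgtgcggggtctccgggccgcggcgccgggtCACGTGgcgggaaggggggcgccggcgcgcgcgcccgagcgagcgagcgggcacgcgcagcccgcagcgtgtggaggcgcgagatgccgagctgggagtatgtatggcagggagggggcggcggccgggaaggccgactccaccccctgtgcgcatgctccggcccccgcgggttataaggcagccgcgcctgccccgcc
Egln3 (chr12:54203875-54204124, strand -): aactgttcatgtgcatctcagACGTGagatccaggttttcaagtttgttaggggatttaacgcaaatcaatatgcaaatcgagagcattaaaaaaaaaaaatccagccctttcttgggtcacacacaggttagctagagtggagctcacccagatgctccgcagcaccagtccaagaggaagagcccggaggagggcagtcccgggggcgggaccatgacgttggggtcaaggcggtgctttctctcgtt
Bnip3 (chr7:138909507-138909756, strand -): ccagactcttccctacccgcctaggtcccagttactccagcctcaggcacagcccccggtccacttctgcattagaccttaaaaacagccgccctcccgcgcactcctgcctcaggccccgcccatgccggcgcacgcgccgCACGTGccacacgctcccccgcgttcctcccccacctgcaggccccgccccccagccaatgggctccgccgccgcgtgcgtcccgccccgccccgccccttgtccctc
The match lies 36 bases before the start in Slc2a1 and 229 bases before it in Egln3. In Slc16a1 and Bnip3 the capitals form the palindrome CACGTG, the E-box that MYC and its relatives bind, which holds ACGTG on both strands, and its first base lies 200 bases before the start in Slc16a1 and 108 in Bnip3. Counted on both strands over 300 bases (250 before and 50 after the start), ACGTG was present in 21 of the 39 members with a window (53.8%), against 21.8% of 27025 genes. CACGTG, each of which also counts as an ACGTG, was present in 8 members (20.5%) against 8.09% of genes. The AP-1 letters TGANTCA were found in 1 member (2.56%) against 8.97%. Of the 21 members with ACGTG, 4 rose in the S6K1 series and 11 in the S6K1/S6K2 series, and of the 18 without it 3 and 6 rose. The 4 printed genes all hold it. Those that rose without it were Pfkp and Taldo1 in both series and Ldhb in the S6K1 series. In the S6K1/S6K2 series they also included Gpi1, Pdk1, Pgd and Tkt. The windows were not matched for base composition, and a match is not a binding site.

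**Figure D3:**
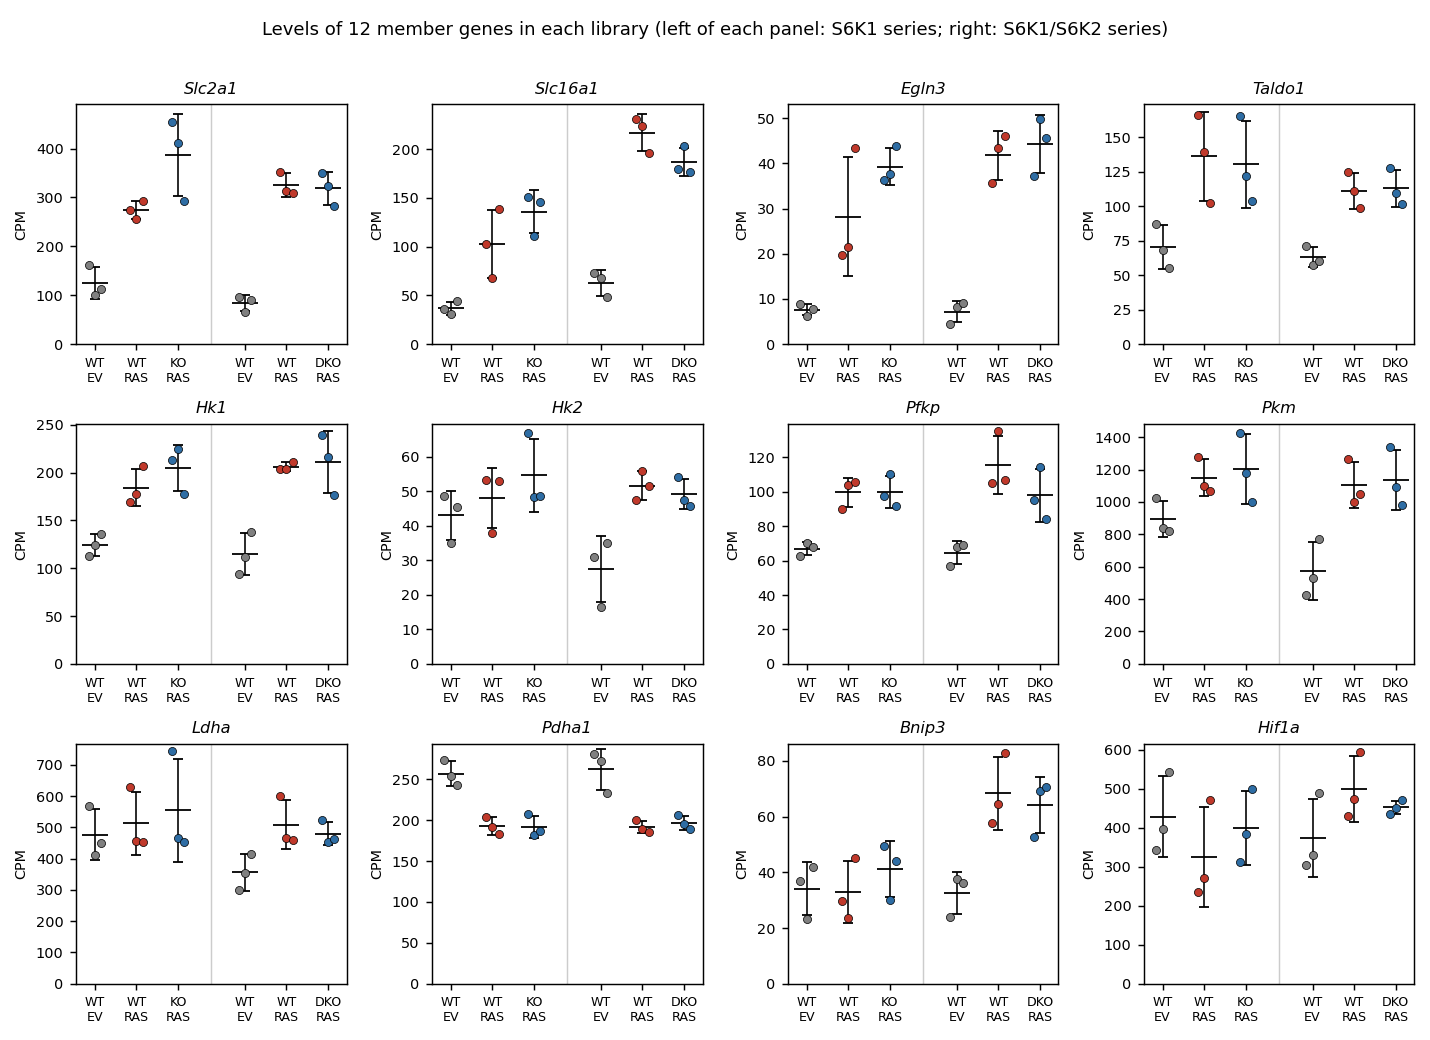
CPM in each library for 12 members, with the mean and SD of 3 libraries per group. The S6K1 series is on the left of each panel and the S6K1/S6K2 series on the right, with EV in grey, WT RAS in red and KO or DKO RAS in blue. The RAS libraries of Slc2a1, Slc16a1, Egln3, Taldo1, Hk1 and Pfkp lie above all EV libraries of their series, and those of Pdha1 lie below.

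In upper glycolysis, from hexokinase to aldolase, 2 of 8 members rose in the S6K1 series (25%, against 7.15% of all genes called higher) and 5 of 8 in the S6K1/S6K2 series (62.5%, against 13.5%). Hk1, the widely expressed hexokinase, read 113, 125 and 135 CPM with EV and 169, 178 and 206 with RAS in the S6K1 series (log2 change 0.57, SE 0.13, adjusted p = 0.0218). That call was lost without WT EV replicate 1 or 2 or WT RAS replicate 2 or 3 (adjusted p up to 0.0697). In the S6K1/S6K2 series the log2 fold change of Hk1 was 0.85 (SE 0.16, adjusted p = 0.00541). Hk2, the hexokinase known to be induced in proliferating and hypoxic cells, read 31.0, 16.5 and 34.9 CPM with EV and 47.4, 55.7 and 51.5 with RAS there. All 3 RAS libraries were higher, by 0.91 on the log2 scale (SE 0.23, adjusted p = 0.0187), although the call was lost without WT RAS replicate 2 or 3 (adjusted p = 0.0679 and 0.0533). The Hk2 libraries of the S6K1 series overlapped, at 48.6, 35.1 and 45.4 CPM with EV and 53.2, 37.9 and 52.9 with RAS (log2 change 0.16, SE 0.20, adjusted p = 0.659).

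Phosphofructokinase is made from the Pfkl, Pfkm and Pfkp subunits, and Pfkp, the platelet type, was the subunit that rose in both series. It read 62.7, 70.3 and 67.7 CPM with EV against 90.2, 104 and 105 with RAS in the S6K1 series, and 56.8, 68.0 and 69.2 against 105, 135 and 107 in the S6K1/S6K2 series. The changes on the log2 scale were 0.58 (SE 0.11, adjusted p = 0.0102) and 0.84 (SE 0.16, adjusted p = 0.00465). Pfkl and Pfkm, the liver and muscle types, passed in neither (log2 fold changes 0.02 and 0.57 for Pfkl, 0.19 and 0.08 for Pfkm). Whether Pfkp differed from the other subunits was not tested. Pfkl had 1 low library, at 45.0, 109 and 123 CPM in the 3 EV libraries of the S6K1/S6K2 series.

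Gpi1 (phosphoglucose isomerase) and Aldoa (aldolase A), enzymes on either side of phosphofructokinase, rose in the S6K1/S6K2 series. Gpi1 read 193, 191 and 231 CPM with EV and 442, 393 and 394 with RAS (log2 change 1.00, SE 0.13, adjusted p = 0.000904). Aldoa read 560.3, 524 and 652 CPM with EV and 1299, 1073 and 1071 with RAS (log2 change 0.99, SE 0.15, adjusted p = 0.00169). In both genes the lowest RAS library was above the highest EV library. In the S6K1 series they changed by 0.43 (SE 0.14, adjusted p = 0.0824) and 0.51 (SE 0.22, adjusted p = 0.183) on the log2 scale, also without overlap, and both were called there with the replicate block (adjusted p = 0.00508 and 0.00345). Aldoc, at 2.02, 2.09 and 1.65 CPM with EV in the S6K1 series, was scarce, and its log2 fold changes were 0.51 (SE 0.28, adjusted p = 0.278) and 1.07 (SE 0.61, adjusted p = 0.221).

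Pfkfb2, Pfkfb3 and Pfkfb4 make and remove fructose 2,6-bisphosphate, the strongest known activator of phosphofructokinase, and none of the 3 passed the test in either series. Pfkfb3, the most active of them as a kinase, read 32.2, 43.0 and 49.3 CPM with EV and 24.3, 27.7 and 45.0 with RAS in the S6K1 series (log2 change -0.36, SE 0.27, adjusted p = 0.453). It read 15.2, 29.7 and 50.5 CPM with EV and 33.5, 47.99 and 51.5 with RAS in the S6K1/S6K2 series (log2 change 0.48, SE 0.37, adjusted p = 0.361). The groups overlapped in both, and the lower level with RAS in the S6K1 series was called with the replicate block (log2 fold change -0.38, adjusted p = 0.0166). Without WT EV replicate 3 of the S6K1/S6K2 series the higher level there was called (log2 fold change 1.00, adjusted p = 0.0430). Pfkfb2 and Pfkfb4 had log2 fold changes between -0.17 and 0.24 (adjusted p = 0.598 and 0.806 in the S6K1 series, 0.661 and 0.941 in the S6K1/S6K2 series).

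Among the 7 members of lower glycolysis, from triose phosphate to pyruvate, none was called in the S6K1 series (13.2% of all genes) and 2 were called higher in the S6K1/S6K2 series (28.6%, against 13.5% of all genes). Pkm, pyruvate kinase, whose M1 and M2 isoforms gene counts cannot part, read 425, 528 and 771 CPM with EV and 1263, 997 and 1051 with RAS there (log2 change 0.94, SE 0.23, adjusted p = 0.0149). The call was lost without WT EV replicate 2 (adjusted p = 0.0597). Its log2 fold change in the S6K1 series was 0.36 (SE 0.16, adjusted p = 0.193), with no overlap (1022, 837 and 819 against 1279, 1097 and 1068 CPM) and a call with the block (adjusted p = 0.00842). Gapdh was called in the S6K1/S6K2 series, at 3.49, 3.98 and 7.60 CPM with EV and 11.9, 11.7 and 11.9 with RAS (log2 change 1.23, SE 0.31, adjusted p = 0.0177). That call was lost without WT EV replicate 2 or WT RAS replicate 2 or 3 (adjusted p up to 0.0669), and the gene's counts are limited by its copies. Its rise with RAS exceeded that of the S6K1 series by 1.17 on the log2 scale (unadjusted p = 0.00571, adjusted p = 0.275), a difference that was called without WT EV replicate 3 of the S6K1/S6K2 series (1.60, adjusted p = 0.0168). Tpi1, Pgk1, Pgam1 and Eno1 had log2 fold changes of 0.57, 0.75, 0.85 and 0.60 in that series, with adjusted p between 0.0526 and 0.0723. In the S6K1 series Pgk1, Pgam1 and Eno1 were called with the block (adjusted p = 0.00327, 0.0192 and 0.0361). Eno2, the neuronal enolase, had log2 fold changes near 0 in both (-0.09 and -0.02).

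The lactate dehydrogenase subunits were called in different series. Ldha, the subunit known to favour lactate formation, read 299.8, 352 and 416 CPM with EV and 599.8, 465 and 460.1 with RAS in the S6K1/S6K2 series (log2 change 0.51, SE 0.16, adjusted p = 0.0436). The call was kept without WT EV replicate 3 but lost without any other of the 6 libraries (adjusted p up to 0.128) and with the replicate block (adjusted p = 0.063). The S6K1 series had 569, 412 and 449 CPM with EV and 629, 457 and 453 with RAS, a log2 change of 0.11 (SE 0.23, adjusted p = 0.809). Ldhb, the subunit of the heart enzyme, read 31.7, 22.7 and 27.03 CPM with EV and 45.5, 37.1 and 38.4 with RAS in the S6K1 series (log2 change 0.57, SE 0.16, adjusted p = 0.0422), a call lost without any library but WT EV replicate 1 (adjusted p up to 0.142). Its log2 fold change was 0.15 (SE 0.12, adjusted p = 0.365) in the S6K1/S6K2 series. The difference between the series was 0.39 for Ldha and -0.43 for Ldhb on the log2 scale (adjusted p = 0.566 and 0.384).

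Pdha1, the E1 alpha subunit of PDH, which takes pyruvate into the mitochondrial pathway, was the 1 member that fell in both series. It read 274, 254 and 243 CPM with EV and 204, 191 and 183 with RAS in the S6K1 series, and 281, 272 and 233 CPM with EV and 200.01, 189 and 185 with RAS in the S6K1/S6K2 series. No RAS library reached the lowest EV library. The log2 fold changes were -0.42 (SE 0.11, adjusted p = 0.0306) and -0.45 (SE 0.11, adjusted p = 0.0179). The first call was lost without any 1 of the 6 libraries (adjusted p up to 0.129) and the second without WT EV replicate 2 or WT RAS replicate 2 or 3 (adjusted p up to 0.0750), while the log2 fold change stayed between -0.46 and -0.38 and between -0.52 and -0.40.

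The PDH kinases Pdk1 to Pdk4 switch the enzyme off by phosphorylation. Pdk1, a known HIF1A target, rose in the S6K1/S6K2 series, from 34.3, 41.7 and 34.5 CPM with EV to 50.03, 56.3 and 47.5 with RAS (log2 change 0.48, SE 0.14, adjusted p = 0.0371), although the call was lost without any of the 6 libraries but WT EV replicate 2 (adjusted p up to 0.115). Its levels overlapped in the S6K1 series, at 35.1, 37.0 and 42.0 CPM with EV and 33.9, 29.3 and 45.5 with RAS (log2 change -0.07, SE 0.18, adjusted p = 0.84). Pdk2 and Pdk3 were lower without overlap in the S6K1/S6K2 series, without passing the adjusted threshold (log2 fold changes -0.39 and -0.43, adjusted p = 0.0756 and 0.0633). Pdk3 was called lower in the fit over all 18 libraries (log2 fold change -0.43, adjusted p = 0.0249) and without WT EV replicate 3 (-0.52, adjusted p = 0.0324). Pdk4 varied widely between replicates, with 10.5, 7.87 and 30.2 CPM in the 3 WT RAS libraries of the S6K1 series.

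In the pentose phosphate pathway, Taldo1 (transaldolase, of the branch that recycles sugars without making NADPH) rose in both series. Its levels were 87.5, 68.6 and 55.1 CPM with EV against 166, 139.6 and 103 with RAS in the S6K1 series, and 71.2, 57.5 and 60.1 against 125, 111 and 98.4 in the S6K1/S6K2 series. On the log2 scale it rose by 0.95 (SE 0.24, adjusted p = 0.0315) and 0.82 (SE 0.14, adjusted p = 0.00313). The first was lost without WT EV replicate 2 or 3 or WT RAS replicate 1 or 2 (adjusted p up to 0.109). G6pdx, the enzyme that admits glucose 6-phosphate to the pathway and yields its first NADPH, rose in the S6K1/S6K2 series, from 53.1, 52.9 and 61.7 to 92.2, 79.4 and 82.2 CPM (log2 change 0.60, SE 0.12, adjusted p = 0.00556). The S6K1 series gave 62.0, 60.4 and 54.3 CPM with EV and 80.8, 78.7 and 70.9 with RAS, a log2 change of 0.38 (SE 0.15, adjusted p = 0.137) that was called with the block (adjusted p = 0.00937).

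Pgd, the second NADPH-yielding enzyme, and Tkt, transketolase, also rose in the S6K1/S6K2 series (log2 fold changes 0.58 and 0.53, adjusted p = 0.0426 and 0.0149). Without WT EV replicate 2 both calls were lost (adjusted p = 0.141 and 0.0619), and that of Pgd also without any other library but WT EV replicate 3. Both were called in the S6K1 series with the block (log2 fold changes 0.39 and 0.30). Rpe and Pgls, a pentose epimerase and the lactonase, had log2 fold changes of 0.03 and 0.30 in the S6K1 series and -0.06 and 0.19 in the S6K1/S6K2 series, none of them called without the block. With it Pgls was called higher in the S6K1 series (adjusted p = 0.0161). Rpia (ribose 5-phosphate isomerase) had fitted changes of opposite sign, with 5.71, 6.33 and 6.596 CPM with EV and 9.31, 9.66 and 7.07 with RAS in the S6K1 series but 19.8, 15.4 and 8.30 CPM with EV and 11.9, 7.26 and 8.34 with RAS in the S6K1/S6K2 series. The fitted log2 changes were 0.48 (adjusted p = 0.163) and -0.66 (adjusted p = 0.161). The higher level in the S6K1 series was called with the block (adjusted p = 0.0457), where all 3 pairs were higher with RAS, and the lower level in the other series was called without WT EV replicate 3 (-0.93, adjusted p = 0.0302). The difference was -1.16 on the log2 scale (unadjusted p = 0.01, adjusted p = 0.294), and -1.43 without WT EV replicate 3 of the S6K1/S6K2 series (adjusted p = 0.0416). Gys1, glycogen synthase, passed in neither series (log2 fold changes -0.01 and 0.54, adjusted p = 0.97 and 0.0894).

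The calls of the series overlapped in 7 members, all in the same direction: Slc2a1, Hk1, Pfkp, Slc16a1, Taldo1, Egln3 and Pdha1. They made up 87.5% of the calls of the S6K1 series and 38.9% of those of the S6K1/S6K2 series, and with the block 13 members were called in both. The series have no library in common. All RAS libraries were above all EV libraries for 13 members in the S6K1 series (32.5%, against 15.9% of all genes) and for 23 in the S6K1/S6K2 series (57.5%, against 20.9%). They were below for 1 member (2.5%, against 15%) and for 3 members (7.5%, against 21.7%). In the 3 pairs of libraries with the same number, 28, 31 and 31 of the 40 members were higher with RAS in the S6K1 series and 33, 32 and 33 in the S6K1/S6K2 series, against 47.8% to 50.5% of all genes tested. In 19 members RAS was higher in all 6 pairs, and in Pdha1 it was lower in all 6. The shares of all genes that moved one way in all 6 pairs, or that were called in both series, were not counted. Those counts of members are therefore no result about them. The median member had log2 ratios of 0.29, 0.22 and 0.20 in the pairs of the S6K1 series and 0.88, 0.53 and 0.25 in those of the S6K1/S6K2 series. In the latter, pair 1 holds the EV library that was lowest for 24 members and pair 3 the EV library that was highest for 25. A direct test of the difference between the series called none of the 40 members by edgeR or DESeq2. Over all genes edgeR called 0 of 14483 and DESeq2 139 of 16653 (0.835%). By edgeR 9 members had an unadjusted p under 0.05, against 12.6% of all genes. The replicate block left 1 member called, Bnip3, against 0.4% of all genes. The labels name no batch, and whatever else differed between the series cannot be told apart from it.

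**Figure D4:**
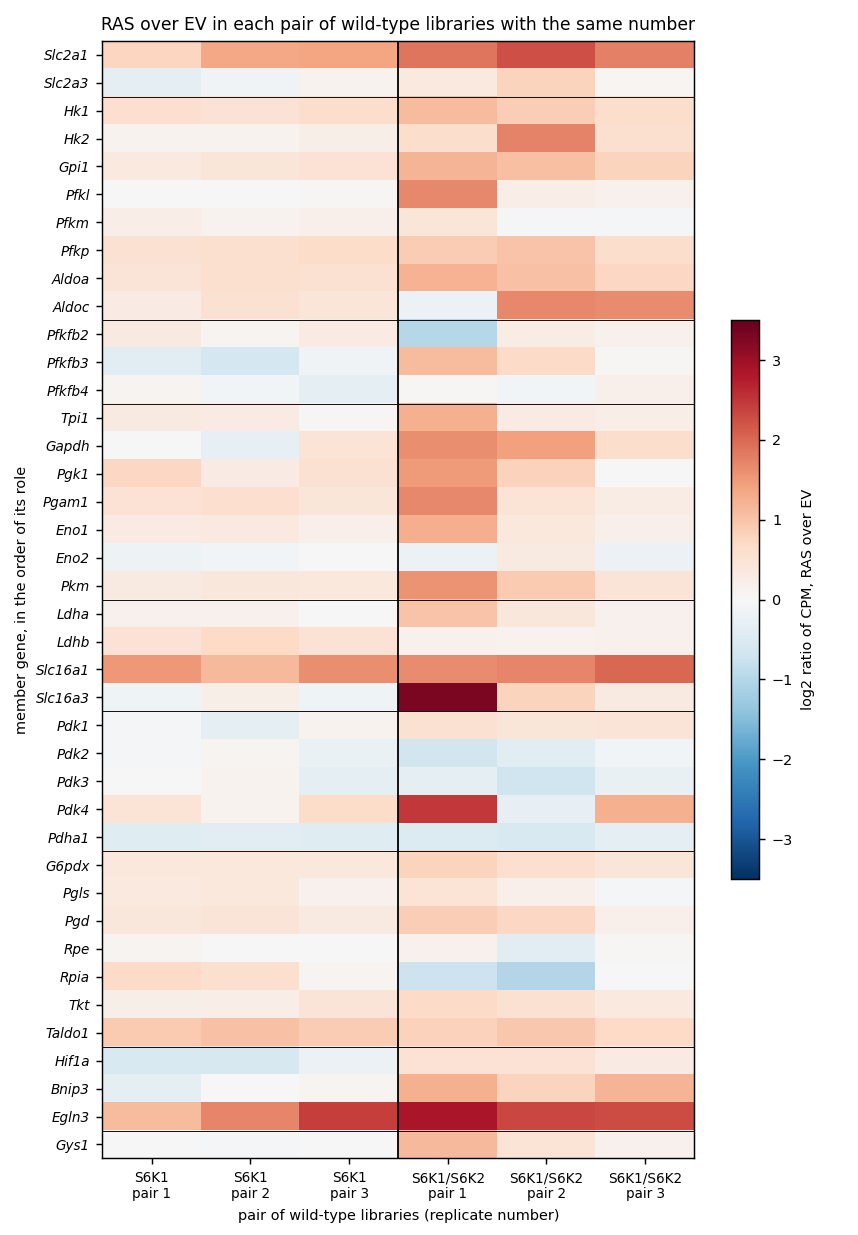
Log2 ratio of CPM, RAS over EV, in each pair of WT libraries with the same replicate number (columns; 3 pairs per series) for the 40 members in the order of their roles (rows). Red is higher with RAS and blue lower. Slc2a1, Slc16a1 and Egln3 are red in all 6 columns and Pdha1 is blue in all 6, while Hif1a and Pfkfb3 are blue on the left and red on the right, with Pfkfb3 nearly white in the last column.

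Genes outside the 40 but of the same pathways were counted in the same way, to be read against 7.15% of all genes called higher and 6.09% called lower in the S6K1 series, and 13.5% and 12.7% in the S6K1/S6K2 series. Of 29 further genes of glycolysis and glucose entry, 20 were tested in the S6K1 series (1 rose, 2 fell) and 21 in the S6K1/S6K2 series (none rose, 2 fell). Slc16a7 (MCT2) fell in both, by log2 fold changes of -1.15 and -2.10 (adjusted p = 0.0456 and 0.00202). Of the 10 genes that bring pyruvate into mitochondria and PDH, none was called in the S6K1 series, but the carrier subunits Mpc1 and Mpc2 fell in the S6K1/S6K2 series (-1.12 and -0.78, adjusted p = 0.0317 and 0.0174). With the block they were lower in the S6K1 series as well (-0.70 and -0.33 without it, adjusted p with it 0.0447 and 0.0416).

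Of 8 tested genes at the edge of the pentose phosphate pathway and of NADPH supply, 1 rose in the S6K1 series and 2 in the S6K1/S6K2 series. Dera, deoxyribose-phosphate aldolase, was called in both (log2 fold changes 1.16 and 0.60, adjusted p = 0.00633 and 0.0393). Of 18 tested genes of glycogen and glucose phosphate handling, 1 rose and 3 fell in the S6K1 series, and 3 rose and 5 fell in the S6K1/S6K2 series. Ppp1r3c, which targets a phosphatase to glycogen, fell most, by log2 fold changes of -3.11 and -2.57 (adjusted p = 0.00935 and 0.00935). The gene that bears the symbol Pgm1 in the annotation used (chr5:64484175-64519594, strand + in NCBIM37) rose in both (0.41 and 0.61, adjusted p = 0.0312 and 0.0205).

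Of other genes of the hypoxia pathway and its known targets, 3 were called higher and 1 lower of 27 in the S6K1 series, which at 14.8% is near the 13.2% of all genes. In the S6K1/S6K2 series 8 were called higher and 1 lower of 28 (32.1%, against 26.3%). With the block these counts were 9 and 6 (55.6%, against 36.2%), and 10 and 1 (39.3%, against 28.7%). Adm (adrenomedullin) and Mxi1, a MYC antagonist, were called higher in both series (Adm 0.93 and 1.41, adjusted p = 0.0392 and 0.00547; Mxi1 0.54 and 0.91, adjusted p = 0.014 and 0.00206). Vegfa, the angiogenic factor, had a log2 fold change of 0.97 in the S6K1/S6K2 series (adjusted p = 0.00239) and 0.38 in the S6K1 series (adjusted p = 0.132). Among 8 tested upstream factors none was called in the S6K1 series, and Myc rose while Usf1 and Tfeb fell in the S6K1/S6K2 series (1.23, -0.39 and -1.25, adjusted p = 0.0187, 0.0488 and 0.016). Fibroblast markers moved with RAS too, from a mean summed 55065 to 31046 CPM and from 51820 to 28749 CPM, with 5 lower and 1 higher of 12 called in the S6K1 series and 6 lower in the S6K1/S6K2 series. The macrophage sum was 2951, 2280 and 588 CPM with EV and 3459, 3112 and 657 with RAS in the S6K1 series, and 1213, 137 and 179 against 921, 136 and 221 in the S6K1/S6K2 series. Epithelial markers summed to 0.641 to 0.974 CPM with EV and 8.71 to 13.6 with RAS in the S6K1 series, and to 0.0884 to 0.873 and 17.8 to 28.5 in the other. In bulk RNA, fewer cells of a type and less RNA per cell cannot be told apart, and the part of these cells in the member changes was not tested. Over all 18 libraries the summed levels were 7.71 to 13.6 CPM for endothelial, 0.701 to 4.46 for skeletal muscle, 13.0 to 101.4 for neural and 0 to 0.556 for erythroid markers.

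To ask whether the kinases are needed for these levels, KO RAS and DKO RAS were compared with WT RAS of their own series. None of the 40 members was called after loss of S6K1 by edgeR or DESeq2, against 0.00712% of all genes by edgeR (1 of 14036) and 0.65% by DESeq2 (96 of 14758), and by edgeR 2 had an unadjusted p under 0.05, against 6.86% of all genes. After loss of both kinases none was called by either tool, against 0.0216% by edgeR (3 of 13881) and 0.0367% by DESeq2 (10 of 27257), and by edgeR none had an unadjusted p under 0.05, against 1.29%. With so few calls among all genes, the absence of called members is no result about them. With the replicate block, 0 members were called after loss of S6K1, where 4.15% of all genes were (583).

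After loss of S6K1 the 95% interval lay within 1 log2 unit of 0 for 38 of 40 members, against 73.6% of all genes, and after loss of both kinases for 36 of 40, against 74.9%. The exceptions were Pdk4 and Egln3 in the first (-0.15 to 2.18 and -0.16 to 1.12), and Pfkfb3, Aldoc, Slc16a3 and Pdk4 in the second. The width of an interval depends on a gene's level, and the genes were not matched for level. These shares therefore do not show that the members were steadier than other genes. The fitted change was above 0 for 29 and 13 members, against 56.6% and 49.9% of all genes, and the median member differed by 0.09 and -0.03 on the log2 scale. Fitted log2 fold changes ran from -0.33 to 1.01 after loss of S6K1 and from -0.28 to 0.14 after loss of both. In the pairs of same-numbered libraries, 32, 28 and 18 of the 40 members were higher in KO RAS, against 58.4%, 52.1% and 47.0% of all genes, and KO RAS replicate 1 was the highest of its group for 24 members.

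**Figure D5:**
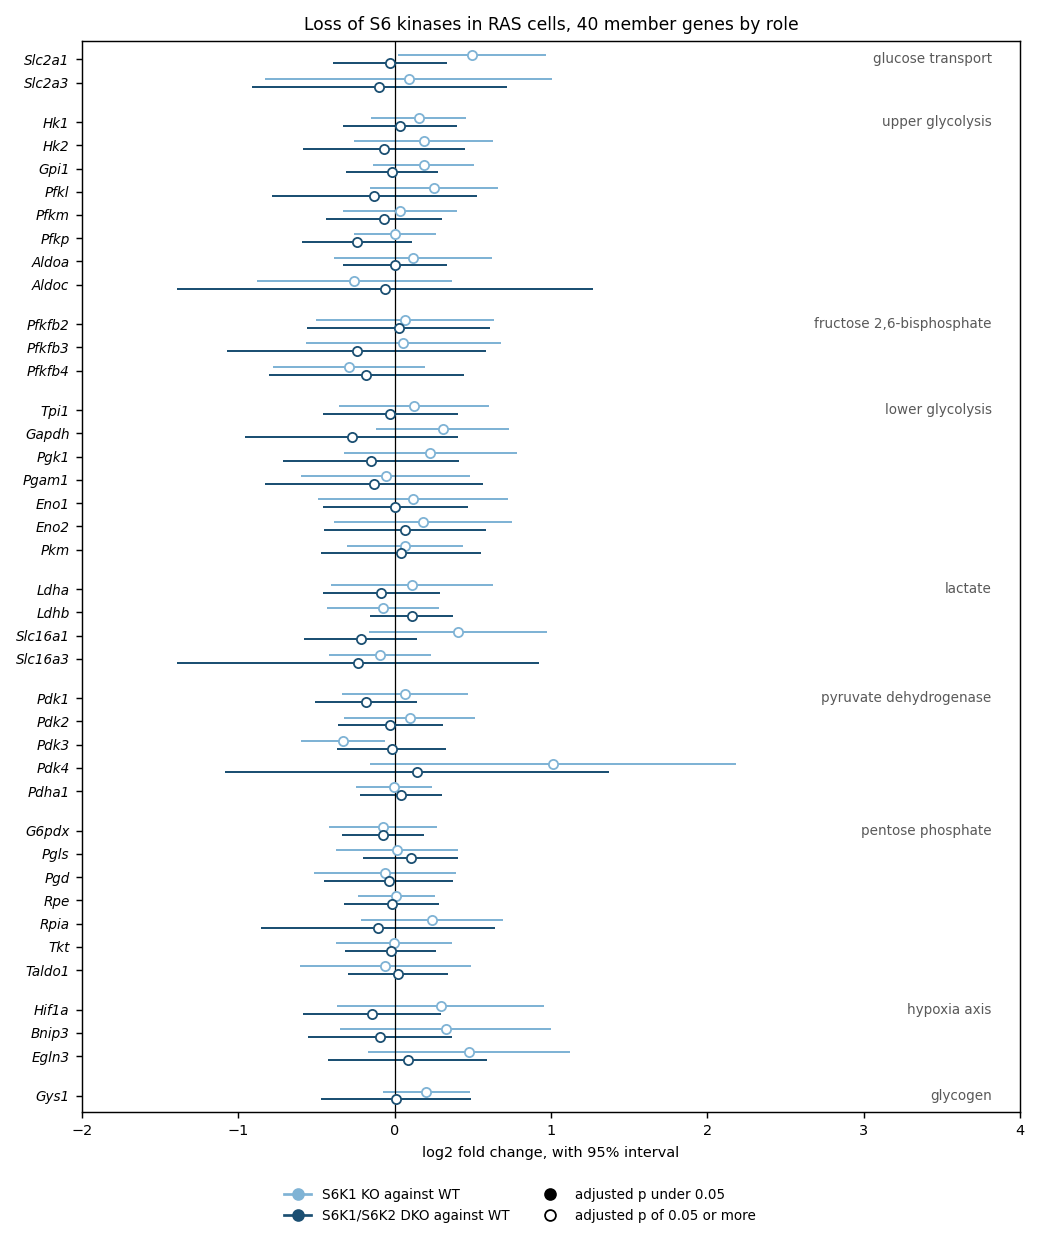
Log2 fold change for the 40 members by role. Light points are KO RAS against WT RAS in the S6K1 series, and dark points are DKO RAS against WT RAS in the S6K1/S6K2 series. The 95% intervals were derived from the edgeR test. All points are open, since none has an adjusted p under 0.05. Pdk4 after loss of S6K1 lies furthest from 0, at 1.01.

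Slc2a1, Slc16a1 and Egln3, which had moved most with RAS, were above every EV library of their series in all KO and DKO libraries. They were picked for their rise over those same EV libraries, and KO or DKO RAS against EV was not tested. The share of all genes with this pattern was not counted, so it is no result about these members. Slc2a1 read 454, 412 and 294 CPM in the 3 KO RAS libraries, against 274, 255.97 and 292 in WT RAS, so that the lowest KO library was just above the highest WT library. The log2 fold change was 0.50 (SE 0.21, adjusted p = 0.675), with an interval of 0.03 to 0.96. In DKO RAS it read 349, 324 and 283 CPM against 353, 314 and 309, a log2 change of -0.03 (SE 0.16, adjusted p = 1) with an interval of -0.39 to 0.33. Slc16a1 read 151, 111 and 146 CPM in KO RAS and 179, 203 and 177 in DKO RAS, with log2 fold changes of 0.41 (SE 0.25, adjusted p = 0.964) and -0.22 (SE 0.16, adjusted p = 1). Egln3 read 36.2, 37.6 and 43.9 CPM in KO RAS and 37.2, 49.9 and 45.7 in DKO RAS, with log2 fold changes of 0.48 (SE 0.28, adjusted p = 0.948) and 0.08 (SE 0.22, adjusted p = 1).

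None of the members at the control points of the pathway was called. The log2 fold changes of Hk2, Pfkp, Pkm and Ldha were 0.18, 0.00, 0.07 and 0.11 after loss of S6K1 and -0.07, -0.24, 0.04 and -0.08 after loss of both. G6pdx had -0.08 and -0.08, Pdk1 0.06 and -0.18, and Pdha1 -0.01 and 0.04. Hif1a read 313, 384 and 499.6 CPM in KO RAS and 436, 449.7 and 470.3 in DKO RAS, with log2 fold changes of 0.29 (SE 0.29, adjusted p = 0.997) and -0.14 (SE 0.20, adjusted p = 1). Bnip3 read 49.4, 30.0 and 44.0 CPM in KO RAS and 52.6, 69.3 and 70.6 in DKO RAS, with log2 fold changes of 0.33 (SE 0.30, adjusted p = 0.997) and -0.09 (SE 0.20, adjusted p = 1). Pfkfb3 had 0.06 and -0.24 and Aldoc -0.26 and -0.06, with wide intervals for Aldoc after loss of both (-1.38 to 1.26).

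Groups without overlap were few. After loss of S6K1, Slc2a1 was higher (1 of 40, against 3.85% of all genes) and Pdk3 was lower (1 of 40, against 4.17%). Pdk3 read 33.7, 33.0 and 35.8 CPM in KO RAS and 44.0, 47.1 and 37.8 in WT RAS (log2 change -0.33, SE 0.12, adjusted p = 0.587). After loss of both kinases no member was higher without overlap, against 3.02% of all genes, and Gapdh was lower (1 of 40, against 3.05%), at 10.9, 11.2 and 7.22 CPM against 11.9, 11.7 and 11.9 (log2 change -0.28, SE 0.30, adjusted p = 1). Pdk4, a PDH kinase known to be raised by fasting and fat use, had the largest fitted change after loss of S6K1, with 28.4, 35.2 and 34.6 CPM in KO RAS against 10.5, 7.87 and 30.2 in WT RAS. The groups overlapped through WT RAS replicate 3 (log2 change 1.01, SE 0.52, adjusted p = 0.848), and with the replicate block the adjusted p was 0.0508. The difference of the loss effects between the series called none of the 40 members by edgeR or DESeq2, against 0.0069% and 0.00333% of all genes, and by edgeR none had an unadjusted p under 0.05, against 1.23%.

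The level of macrophage markers moved with genotype in the same libraries. The summed level of the 14 macrophage markers was 3459, 3112 and 657 CPM with WT kinases, and 780.4, 612 and 215 after loss of S6K1. In the S6K1/S6K2 series the sums were 921, 136 and 221 CPM for WT RAS, then 203, 41.1 and 64.7 for DKO RAS. Of the 13 markers tested, 13 were lower in both comparisons, with median log2 fold changes of -2.24 and -2.04. None passed the adjusted threshold in the fit without the block, and with it all 13 were called lower in KO RAS. Csf1r, the receptor that defines macrophages, read 148, 148 and 33.2 CPM in WT RAS against 36.1, 26.3 and 8.92 in KO RAS, and 34.5, 3.81 and 5.74 against 7.33, 1.32 and 2.08 in the S6K1/S6K2 series. The part of these cells in the members' levels was not tested.

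The further lists of pathway genes gave 0 calls after either loss in the fit without the block. The largest fitted change among these genes in either comparison was that of Hk3, the hexokinase of blood cells, with log2 fold changes of -2.26 after loss of S6K1 (adjusted p = 0.587, and 1.08e-05 with the block) and -2.39 after loss of both (adjusted p = 1). Hk3 read 27.5, 26.7 and 7.39 CPM in WT RAS against 5.82, 5.52 and 1.5 in KO RAS, in the same order of libraries as the macrophage sum. In the S6K1/S6K2 series it read 6.48, 0.595 and 0.741 CPM in WT RAS and 1.29, 0.101 and 0.0902 in DKO RAS. DKO RAS replicates 2 and 3 were below the level that 3 counts make there (0.301 and 0.275 CPM before TMM scaling). The fitted change after loss of both kinases is therefore that of a gene near the floor. Pygl, liver glycogen phosphorylase, was also lower with the block (-0.70 without it, adjusted p with it 0.0257), and Arnt2 and Plod2 of the hypoxia list were higher with it (0.64 and 0.51, adjusted p with it 0.0387 and 0.0401).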

How the data were processed

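RNA from 18 MEF cultures was sequenced as stranded poly(A) libraries with single-end reads of 50 bases. The authors deposited 1 table of whole-number read counts per gene and library, with no normalization, and those counts were used as deposited. The study's methods name CASAVA, TopHat on mm9 and HTSeq, whereas the submitters' processing notes name CASAVA, STAR 2.7.1a, mm10 and DESeq2 1.28.1, so the build behind the counts was not settled here. Gene positions are those of the GENCODE annotation of NCBIM37, and promoter windows are those of RefSeq on GRCm38.p6. A symbol was found for 32589 of 55401 identifiers, which held 99.1% of the counts, and 25336 identifiers had no count.

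Each comparison was fitted with edgeR 4.0.16 (R 4.3.3, limma 3.58.1) by its quasi-likelihood test, two-sided, over the 9 libraries of its series with group as the only term, TMM scaling, the filterByExpr filter (minimum count 10) and Benjamini-Hochberg adjustment over all genes tested. A gene was called at an adjusted p under 0.05. Differences between series were contrasts over all 18 libraries. CPM values were computed with TMM factors set within each series, so levels are compared within a series. The script was tested on counts simulated from the data's means, dispersions and library sizes. Of genes set 2-fold higher, it called 45.5% for RAS in the S6K1 series and 41.7% in the S6K1/S6K2 series. It called 41% for loss of S6K1 and 53.1% for loss of both. Of genes set 4-fold lower, it called 80.9%, 78.7%, 85.6% and 88.7% in the same order. A member that was not called may therefore still have changed.

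The members, the further gene lists and the marker lists were chosen with earlier results of these data known. Full statistics are given for up to 8 called members with the largest change in each RAS comparison, for any member called in a loss comparison or a difference, and for 12 set control points (Slc2a1, Hk2, Pfkp, Pfkfb3, Aldoc, Pkm, Ldha, Pdk1, G6pdx, Hif1a, Bnip3 and Egln3). Members named beyond these were chosen after their values were seen. Replicates of all 18 within-group pairs differed by more than counting error. The study states that the MEFs of its RAS experiments came from independent pairs of embryos, but the labels do not tie each replicate to an embryo. The main fit, and the fits that left out a library, did not use the replicate number. Their p-values therefore cover the spread between these cultures and not that of the change within a pair.

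Whether equal replicate numbers pair libraries was checked from deviations from the group means. Their correlations were 0.725, 0.467 and 0.679 for RAS in the S6K1 series, 0.370, 0.291 and 0.321 for RAS in the S6K1/S6K2 series, and 0.725, 0.419 and 0.630 for loss of S6K1, so those numbers were taken as pairs. The alternatives were DESeq2 size factors, upper-quartile scaling, the DESeq2 1.42.0 test, a filter of at least 10 counts in every library and no filter at all. A replicate block, the 6 libraries compared, all 18 libraries and leaving out each library were also used. The block was fitted over all 9 libraries of a series, or all 18 for differences. It thus also tied DKO libraries to the WT libraries of the same number.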

Additional observations from a re-analysis of the deposited data

Results flagged for a closer look

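Pfkfb3 and Hif1a were singled out because every same-numbered pair of WT libraries moved one way in the S6K1 series and the opposite way in the S6K1/S6K2 series. For Pfkfb3 the log2 ratios of RAS over EV were -0.40, -0.62 and -0.13 in the S6K1 series and 1.12, 0.68 and 0.03 in the S6K1/S6K2 series. The fitted difference between the series was 0.83 on the log2 scale (edgeR, unadjusted p = 0.114, adjusted p = 0.482), and with the replicate block the adjusted p was 0.0973. For Hif1a the ratios were -0.54, -0.56 and -0.20 against 0.50, 0.52 and 0.28. Its fitted difference was 0.80 (edgeR, unadjusted p = 0.0419, adjusted p = 0.384), and with the replicate block the adjusted p was 0.0561. Neither difference passed the adjusted threshold, and the labels name no batch. The share of all genes that meet this rule was not counted, so meeting it is no result about these members.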

How the results depend on the processing

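With the replicate block the members called with RAS in the S6K1 series went from 8 to 21, and those called in the difference of the RAS effect from 0 to 1. The block moved calls over all genes from 1859 to 5085 for RAS and from 1 to 583 for loss of S6K1, and it changed the count of members called in no other comparison by over 1.5 times. Over all genes the DESeq2 test called 96 for loss of S6K1, 10 for loss of both (against 3) and 139 for the difference of the RAS effect (against 0), and without a filter these counts were 108, 11 and 204, while the block gave 58 for the difference. For loss of both kinases the same-numbered libraries did not all deviate together (correlations 0.271, 0.472 and -0.042), so the number was not taken as a pair, and the block left 0 members and 8 of all genes called. Leaving out 1 library gave 4 to 6 members in the S6K1 series, 12 to 25 in the S6K1/S6K2 series (25 without WT EV replicate 3), 0 to 2 for the difference of the RAS effect (2 without WT EV replicate 3 of the S6K1/S6K2 series) and 0 in the other comparisons. The median member then ranged from 0.20 to 0.32 and from 0.44 to 0.77 on the log2 scale with RAS, from 0.00 to 0.12 after loss of S6K1 and from -0.07 to -0.01 after loss of both. Of 1226 values for single genes under an alternative, 1173 kept their side of the threshold, 46 lost a call and 7 gained one. Among the 1173, 49 that were never called changed sign. All values of the loss comparisons (168 and 167) and of their difference (215) kept their side, where no member was called under any setting. Copied sequence limits Gapdh, Pgk1, Pgam1, Eno1 and Bnip3.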

Other observations

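Beyond the genes described above, several known hypoxia targets were called higher with RAS in the S6K1/S6K2 series, by edgeR with adjustment over all genes. They were picked from the risers of the hypoxia list. The genes of that list called lower with RAS, counted above, are not named in this report. Ankrd37, an ankyrin repeat protein induced by HIF1A, had a log2 fold change of 2.63 (adjusted p = 0.000815), and Ero1a, an oxidase of the endoplasmic reticulum, 1.71 (adjusted p = 0.00176). Fam162a, a mitochondrial protein, had 1.01 (adjusted p = 0.00641). Their values in the S6K1 series were 1.18, 0.04 and 0.29 (adjusted p = 0.0535, 0.939 and 0.574). Cited2, which competes with HIF1A for a coactivator, rose in the S6K1 series (1.52, adjusted p = 0.0236) and had 0.73 in the S6K1/S6K2 series (adjusted p = 0.159). Pgm2l1, a glucose 1,6-bisphosphate synthase, is not of the hypoxia list but of that for glycogen and glucose phosphate. It rose in the S6K1/S6K2 series (2.01, adjusted p = 0.000847), against 0.60 in the S6K1 series (adjusted p = 0.177). The difference of the RAS effect between the series was 1.67 on the log2 scale for Ero1a (adjusted p = 0.142) and 1.39 for Pgm2l1 (adjusted p = 0.222). It was called for Ero1a by DESeq2 (adjusted p = 0.0102), with the replicate block (0.0432), without a filter (0.00293) and without WT EV replicate 3 of the S6K1/S6K2 series (0.0209), and for Pgm2l1 without a filter (0.0231). No alternative called it for Ankrd37, Fam162a or Cited2. These genes were chosen after their values were seen.

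The median log2 fold changes of the further lists with RAS lay closer to 0 than the 0.26 and 0.58 of the 40 members. In the S6K1 and S6K1/S6K2 series they were 0.10 and -0.09 for other glycolysis and glucose entry, -0.05 and -0.16 for pyruvate entry, and 0.13 and 0.03 for the edge of the pentose phosphate pathway. They were 0.03 and 0.09 for glycogen and glucose phosphate, 0.10 and 0.30 for other hypoxia genes and -0.06 and -0.16 for upstream factors. Whether the lists differed from the members was not tested.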
